A study of Mus musculus with 44 samples.

Results

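T cell receptor β-chain CDR3s with a hydrophobic residue at both position 6 and position 7 were examined in 44 mouse melanomas. A CDR3 was taken as β-chain (TRB) where its last residues matched 1 of 12 Trbj endings, and it entered the comparison where it was 13 to 15 residues long. It was a member where residues 6 and 7, counted from the first cysteine as 1, were both cysteine, phenylalanine, isoleucine, leucine, methionine, valine, tryptophan or tyrosine. Of 53241 distinct TRB CDR3s of these lengths, 1012 (1.90%) were members, among 121860 distinct CDR3s of both chains in all. Each CDR3 was counted once in every tumour that held it, which gave 1158 member entries of 71116 (1.63%). Members held 41760 of 4920214 reads, or 0.849%.

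The CDR3 is the loop of the receptor that lies over the peptide presented by MHC. In the β-chain it is assembled from the end of a Trbv gene, a short Trbd segment, the start of a Trbj gene and bases added at the joins, so that positions 6 and 7 usually fall in the part made by the Trbd segment and the added bases. Hydrophobic residues at these positions are known to favour recognition of self peptides and have been linked with regulatory T cells. The table held no marker of cell identity, so the kind of T cell that carried a CDR3 was not measured.

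The tumours were subcutaneous B16F10 melanomas, grown on the backs of wild-type mice (C57BL/6 by the labels, C57BL/6J by the study's methods) and collected on day 12, with 1 library per tumour from 100 µg of tissue. They came from 14 mice labelled Vehicle (described in the study's methods and in the table as not treated), 15 given an antibody against the checkpoint receptor PD-1 (aPD-1) and 15 given AC484, a small-molecule inhibitor of the phosphatases PTPN2 and PTPN1. The study's methods give doses and mouse ages for its tumour experiments in general and not for these libraries in particular, and each group stands for 1 transplanted cell line. TRB reads per tumour ran from 5060 to 188185 (median 56219.5) in Vehicle, from 58534 to 399662 (median 199348) in aPD-1 and from 32948 to 407156 (median 135135) in AC484. The study's methods describe libraries pooled in equal molar amounts, so these totals also depend on pooling and sequencing depth. Because the tissue was bulk tumour, fewer T cells, less receptor RNA per cell and lower library depth cannot be told apart.

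Some members are shown first because the results turn on them. Capitals mark positions 6 and 7, and the list holds the 5 members found in the most tumours, the 5 that held the largest share of a tumour and the most widely found member of each of the 4 commonest residue pairs, with some in more than 1 of these sets.
Tyrosine-tryptophan, Trbj2-1, in 11 tumours: casspYWggyaeqff
Tyrosine-tryptophan, Trbj2-7, in 9 tumours: cassfYWgssyeqyf
Tyrosine-tryptophan, Trbj2-1, in 6 tumours: casspYWgnyaeqff
Valine-tryptophan, Trbj2-5, in 3 tumours: casslVWgqdtqyf
Tryptophan-valine, Trbj2-7, in 3 tumours: cassdWVsyeqyf
Leucine-leucine, Trbj2-1, in 3 tumours: casspLLggfaeqff
Valine-leucine, Trbj2-3, in 2 tumours: cassqVLggsetlyf
Leucine-valine, Trbj2-3, in 3 tumours: casslLVsaetlyf
Leucine-tyrosine, Trbj1-3, in 6 tumours: castgLYsgntlyf
Isoleucine-tyrosine, Trbj1-3, in 6 tumours: casseIYsgntlyf
The tryptophan members end the marked pair in a tryptophan followed by glycine in 4 of the 5 shown, and no member with tryptophan is among the 5 largest.

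Of the 1158 member entries, 707 (61.1%) had tryptophan at position 6, position 7 or both. Of 64 possible hydrophobic pairs 52 were seen, and the 10 commonest made up 74.1% of the member entries. Tyrosine followed by tryptophan was the commonest, with 225 entries in 37 tumours, ahead of valine-tryptophan with 156 and tryptophan-valine with 115. Leucine-leucine had 85 entries, valine-leucine 82, leucine-tryptophan 59, leucine-valine 48, phenylalanine-tryptophan 42, tryptophan-leucine 26 and tryptophan-isoleucine 20. Tryptophan stood at position 7 in 44.8% of members. Of all TRB CDR3s of these lengths 6.59% had it there, but only 16.7% had any hydrophobic residue at position 7. The rule requires such a residue, so a higher share in members is fixed in advance and is not read. At position 6, valine (25.7%), tyrosine (22.3%), leucine (21.2%) and tryptophan (17.4%) were the commonest. Tyrosine was the residue at position 6 most often joined by a second hydrophobic residue: 35.6% of CDR3s with tyrosine there were members, against 4.44% of those with tryptophan there. Members with cysteine were few, at 25 entries (2.16%).

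At positions 6 and 7, a pair of hydrophobic residues was rarer than their separate frequencies would give. Position 6 was hydrophobic in 17.0% of entries and position 7 in 16.7%, whose product is 2.83%, whereas the observed share of 1.63% was 0.576 of it. For positions 7 and 8 the same ratio was 0.615, for 8 and 9 it was 0.869, and for 5 and 6 it was 1.05. It was 0.413 for positions 4 and 5, 0.873 for 9 and 10 and 0.200 for 10 and 11. These ratios are a description over pooled entries, with no test.

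The germline segments differ in which of these residues they can supply. Read from mm10, Trbd1 (chr6:41533201-41533212, plus strand) has no hydrophobic residue in any of its 3 forward reading frames, whereas Trbd2 (chr6:41542163-41542176, plus strand) encodes leucine in the second and tryptophan in the third, each followed by glycine. The codon is shown in capitals, since members are sorted by these residues below.
Trbd1, no hydrophobic codon: gggacagggggc
Trbd2, leucine codon of the second frame: gggaCTGggggggc
Trbd2, tryptophan codon of the third frame: gggacTGGgggggc
Trbd2 lies downstream of all Trbj1 genes and upstream of all Trbj2 genes, so that a Trbj1 rearrangement ordinarily draws on Trbd1 and a Trbj2 rearrangement can draw on either. Of 45668 Trbj2 entries 2.16% were members, against 0.676% of 25448 Trbj1 entries. The gap lay mainly in members with tryptophan, which made up 1.45% of Trbj2 entries and 0.177% of Trbj1 entries, while members without tryptophan made up 0.709% and 0.499%. Over all entries, members or not, tryptophan stood at position 6 or 7 in 18.5% of Trbj2 and 3.05% of Trbj1 entries. A higher share of tryptophan with Trbj2 was thus not particular to members. Of the 707 member entries with tryptophan, 93.6% used a Trbj2 gene and 61.8% had glycine at position 8. Of the 315 with leucine and no tryptophan, 83.5% used Trbj2 and 43.8% had glycine at position 8, and of the 136 with neither residue 44.9% used Trbj2 and 5.15% had glycine there. The table does not give nucleotides, so the Trbd segment of a CDR3 was not observed.

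By Trbj gene, the pooled member share was highest for Trbj2-1 (2.58% of 10341 entries), Trbj2-5 (2.51% of 9092) and Trbj2-7 (2.28% of 10631), and lowest for Trbj1-5 (0.247% of 2027) and Trbj1-2 (0.284% of 4575). Pooling weights rich tumours more. As means over tumours, Trbj2-5 was first (2.38%, SE 0.223), followed by Trbj2-1 (2.05%, SE 0.215), and Trbj1-2 was last (0.248%, SE 0.0766). Over all genes the share was 1.09% at 13 residues, 1.60% at 14 and 2.07% at 15, and it reached 3.98% for Trbj2-1 at 15 residues. It was higher at 15 than at 13 residues for the Trbj2 genes other than Trbj2-2, and lower for Trbj2-2 and all 6 Trbj1 genes. The widest gap of the latter kind was that of Trbj1-6, whose share was 3.19% at 13 residues and 0.116% at 15. In its 13-residue CDR3s position 7 coincides with the tyrosine that the gene itself encodes, and 16 of its 17 members of that length had tyrosine there. The shares of Trbj1-1, Trbj1-3, Trbj1-4 and Trbj1-5 were highest at 14 residues. Trbj1 counts were small, as for Trbj1-5 with 1 member of 570 at 13 residues and 0 of 543 at 15, and these gaps were not tested.

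**Figure D1:**
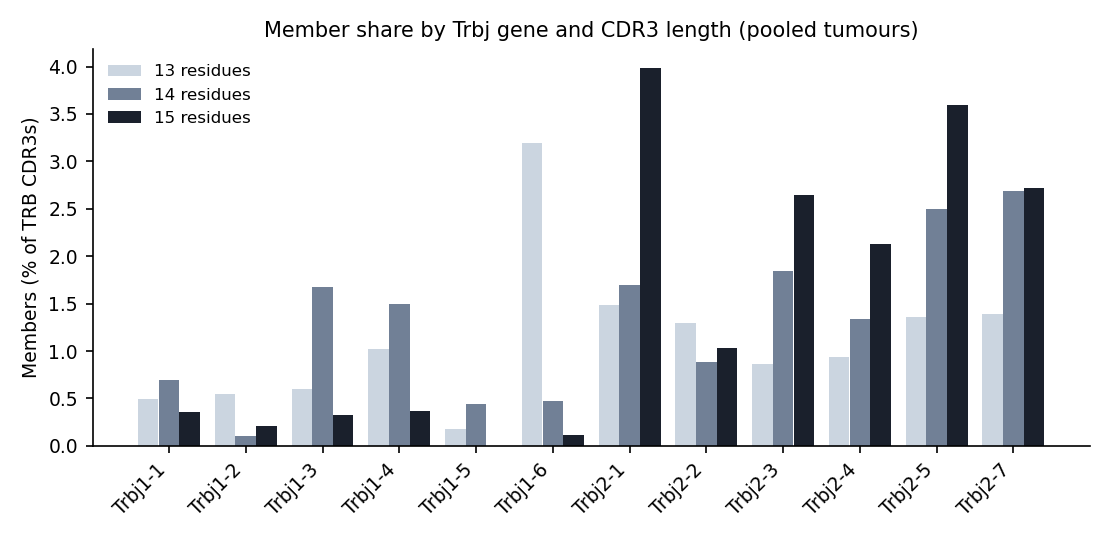
Member share (per cent of TRB CDR3 entries of each gene and length, all 44 tumours pooled) by Trbj gene, with bars for 13, 14 and 15 residues and no error bars. The Trbj2 genes other than Trbj2-2 are higher at 15 than at 13 residues, and Trbj1-6 reaches 3.19% at 13 residues.

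Features of members were tested over tumours. For each of the 42 tumours with a member, the share of members with a feature was set against that of the other TRB CDR3s of the same tumour, for 26 features, with a two-sided sign-flip permutation test and Benjamini-Hochberg adjustment. Of these, 18 (69.2%) passed the threshold of 0.05. One of them, a charged residue at positions 5 to 8, overlaps the positions that the rule fixes as hydrophobic and so had to be lower in members, and nothing is read from it. Of the other 25, 17 passed, but not all of these are free of the rule. Several untrimmed Trbj genes encode serine or asparagine at position 7 of a 13-residue CDR3, which bars membership in advance. Trbj genes exclude each other, as do lengths, so the calls are not independent. Since members are few in some tumours, the means below weight tumours equally. At position 5 or 8, which the rule leaves free, a charged residue was found in 30.2% of members and 34.5% of others, a difference of −4.33 percentage points that did not pass (SE 2.43, permutation p = 0.0818, added after the values were seen). Members were less often hydrophobic at position 8, at 6.48% against 13.6% (difference −7.15, SE 0.919, adjusted p = 2.6e-05), although 8 is next to the pair. Position 5 did not pass, at 36.3% against 31.5% (adjusted p = 0.0791), but passed once CDR3s of 1 read were left out (adjusted p = 0.0211).

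Trbj2-5 was used by 24.3% of members and 12.8% of others (difference 11.5, SE 2.92, higher in 34 of 42 tumours, adjusted p = 0.000165), and Trbj2-1 by 21.0% and 14.0% (adjusted p = 0.00253). Trbj2-7 was higher by 4.09 percentage points (SE 1.86, adjusted p = 0.0492), but this call was lost without CDR3s of 1 read (adjusted p = 0.172), without counts that could be carried between libraries (0.0511) and over CDR3s found in 1 tumour alone (0.0564). All 6 Trbj1 genes and Trbj2-2 were used less often by members. The difference in percentage points was −7.33 for Trbj1-1, −5.48 for Trbj1-2, −4.07 for Trbj1-4, −3.45 for Trbj2-2, −2.81 for Trbj1-3, −2.06 for Trbj1-5 and −1.74 for Trbj1-6, with adjusted p of 0.000676 or lower. Members were more often 15 residues long (44.8% against 33.0%, adjusted p = 0.000173) and less often 13 (17.0% against 26.0%, adjusted p = 0.00026). Over CDR3s found in 1 tumour alone, the difference at 15 residues was 6.09 percentage points where it had been 11.7 (adjusted p = 0.0351), and that at 13 residues, −3.84 where it had been −9.05, no longer passed (adjusted p = 0.169).

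Among the starts that Trbv genes encode, CASSD opened 9.90% of members and 5.67% of others (adjusted p = 0.00662, and 0.0661 without CDR3s of 1 read). Trbv13-1 and Trbv13-3 encode CASSD, but other Trbv genes encode CASS, and the third Trbd2 frame reads aspartate before tryptophan. CASSD followed by tryptophan at position 6 can thus arise without Trbv13-1 or Trbv13-3, and the Trbv gene was not observed. CGA, the start of Trbv20, opened 1.12% of members and 4.01% of others (difference −2.88, SE 0.351, adjusted p = 2.6e-05). CTC (Trbv1), CAW (Trbv31), CASGD (Trbv13-2) and the starts CASRQ or CASSQ (the latter that of Trbv2, Trbv5 and Trbv21) did not pass, with adjusted p of 0.119 or higher. Over CDR3s found in 1 tumour alone, CASRQ or CASSQ passed (difference −2.40, SE 0.847, adjusted p = 0.0136). Trbj2-3, Trbj2-4 and a length of 14 residues did not pass either.

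Members were found in fewer tumours than other CDR3s. Of the 1012 distinct members, 96 (9.49%) were found in 2 or more tumours, against 16.2% of the other TRB CDR3s of these lengths. Of the 1012, 1 was found in 10 or more tumours, against 223 of the 52229 others (0.427%). The most widespread member was in 11 tumours and the most widespread other CDR3 in 39. Since the others are far more numerous, these 2 maxima are not compared. Averaged over tumours, 24.1% of members and 41.8% of others were also present elsewhere (difference −17.8, SE 2.84, lower in 39 of 42 tumours, adjusted p = 2.6e-05). A CDR3 found in several tumours is scored in each, so tumours are not independent here, and the SE and adjusted p can overstate the evidence. Members were also more often 15 residues long, and sharing was not compared within length. Where a count below 1% of that CDR3's highest count in another tumour was dropped, since it could be carried between libraries, 8.40% of members and 15.0% of others remained in 2 or more tumours, and the difference was −15.2 (SE 2.99). By treatment, 952 members (94.1%) were found in 1 group, 58 (5.73%) in 2 and 2 (0.198%) in all 3, where the shares of the other CDR3s were 89.5%, 8.83% and 1.66%, a description with no test.

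The 2 most widespread members were small everywhere. The proline-tyrosine-tryptophan CDR3 found in 11 tumours (9 AC484, 2 aPD-1 and no Vehicle) had 122 reads in all, with 42 reads or 0.0199% of TRB reads in its largest tumour. The other tyrosine-tryptophan CDR3, in 9 tumours (6 aPD-1, 2 AC484 and 1 Vehicle), had 55 reads and at most 16 in a tumour. Another 2 of the 5 most widespread were large in 1 tumour and at the edge of detection elsewhere. The leucine-tyrosine CDR3 had 10480 reads in AC484 tumour 6 and 14 reads in its 5 other tumours together. The isoleucine-tyrosine CDR3 had 6953 reads in aPD-1 tumour 5 and 7 reads in its 5 others.

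Members were less frequent among large clones than among small ones. Here a large CDR3 held at least 0.1% of the TRB reads of its tumour and a small one less. Of 2560 large CDR3s 21 were members (0.820%, 95% exact binomial interval 0.508 to 1.25), against 1137 of 68556 small ones (1.66%, 1.56 to 1.76), intervals that cover counting error alone. Applying each tumour's small-clone share to its large clones would give 36.7 members among them. Averaged over tumours the share was 0.794% in large and 1.47% in small CDR3s, a contrast of −0.679 percentage points (SE 0.189, n = 44, two-sided sign-flip permutation test, p = 0.00083). It was negative in 31 tumours and positive in 11. A tumour with members only among its small CDR3s is negative by construction, so these counts of signs are not read. In 27 tumours no large CDR3 was a member, and a tumour held between 24 and 107 large CDR3s, so the value of a single tumour is coarse.

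Over pooled entries the member share fell over 4 classes of clone size. It was 1.75% of CDR3s under 0.01% of TRB reads and 1.37% of those from 0.01 to 0.1%. It was 0.862% of those from 0.1 to 1% and 0.637% (3 of 471) of those at or above 1%. As means over tumours the shares were 1.53% (40 tumours with CDR3s of that size), 1.30%, 0.813% and 0.836%, with no fall at the last step. AC484 tumours held 35010 of the 52378 entries of the smallest class, so treatment and depth are mixed into these classes. The share of reads was below the share of distinct CDR3s in 38 tumours and above it in 4, which counts the same large clones again. Because members are rare, a tumour without a large member tends to fall below in any case, so nothing is read from this count. Compared within Trbj gene and length the contrast was −0.646 (SE 0.188), and in tumours of at least 20000 TRB reads it was −0.680 (SE 0.200). It lay between −0.768 and −0.631 with each tumour left out in turn. With the boundary at 1% it was −0.587 (SE 0.526, p = 0.309), which rests on 3 large members. In shallow tumours a large CDR3 can hold few reads, and the 2 large members of Vehicle tumour 8 had 8 and 6.

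Neighbouring positions were scanned in the same way. The contrast was 0.479 (SE 0.490) for hydrophobic residues at 5 and 6, −0.496 (SE 0.262) at 7 and 8, −0.386 (SE 0.266) at 8 and 9 and −0.410 (SE 0.237) at 9 and 10. Over these 5 position pairs the adjusted p of the sign-flip test was 0.00415 for positions 6 and 7 and 0.154 or higher for the rest. Positions 4 and 5 (−0.0866, SE 0.0461, unadjusted permutation p = 0.0375, on 93 entries of which 1 was large) and 10 and 11 (0.0562, SE 0.186) were also computed and lay outside this adjustment. Whether the contrast at 6 and 7 differed from that of the other positions was not tested.

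**Figure D2:**
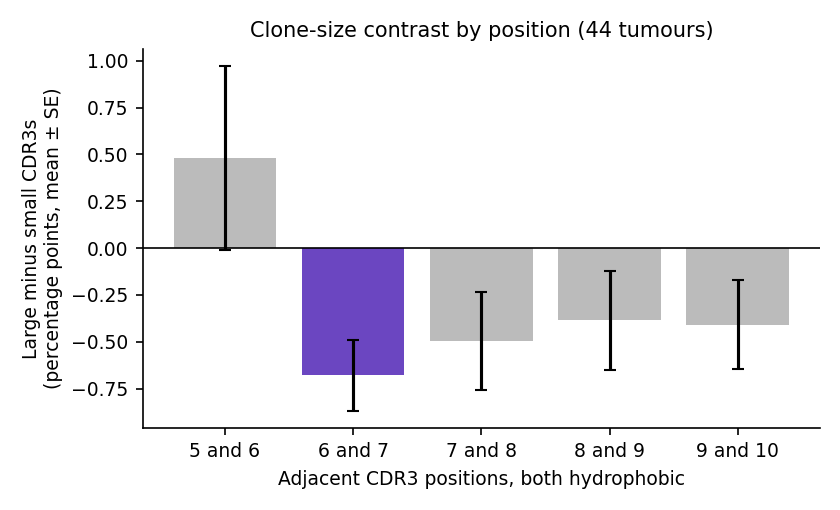
Share of CDR3s with hydrophobic residues at both of 2 adjacent positions among large CDR3s (at least 0.1% of TRB reads) minus that among small ones, in percentage points, as the mean over 44 tumours with its standard error. Positions 6 and 7 lie at −0.679, and positions 5 and 6 lie above 0.

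The lower share in large clones lay in the members with tryptophan. These classes were chosen after the values were seen, so they are described with no test. Members with tryptophan made up 0.273% of large CDR3s (7 of 2560) and 1.02% of small ones (700 of 68556), a contrast per tumour of −0.655 (SE 0.115) that was negative in 35 tumours and positive in 6. With so few large members, a tumour that held only small ones is negative by construction, so these signs are not read. Members without tryptophan made up 0.547% (14) and 0.637% (437), with a contrast of −0.0240 (SE 0.149), and the first contrast minus the second was −0.631 (SE 0.188). Within Trbj2 genes alone the contrasts were −0.967 (SE 0.166) and 0.0134 (SE 0.229). CDR3s with tryptophan at 1 of the positions and no hydrophobic residue at the other, which are not members, were likewise less frequent among large clones (9.02% against 12.1%, contrast −2.92, SE 0.606). Those with phenylalanine or tyrosine at 1 position had a contrast of 0.137 (SE 0.422), and those with an aliphatic residue, methionine or cysteine at 1 position 0.688 (SE 0.731). No member with tryptophan reached 1% of a tumour's TRB reads (0 of 471 CDR3s of that size, exact interval up to 0.780%).

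**Figure D3:**
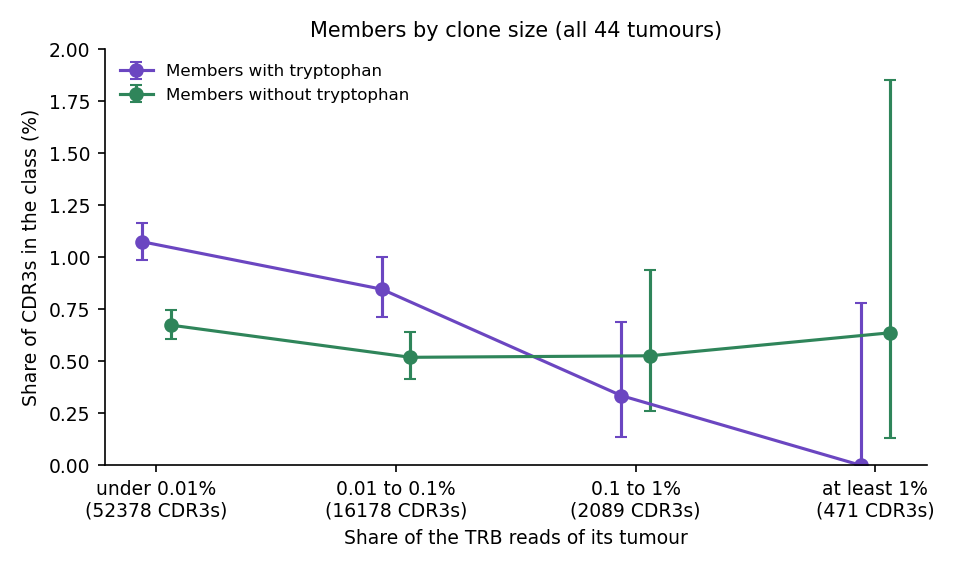
Share of TRB CDR3s (per cent, with exact 95% binomial intervals) that were members with tryptophan or members without it, by the share of the tumour's TRB reads that the CDR3 held, over all 44 tumours. The share with tryptophan goes from 1.07% in the smallest class to 0 in the largest, and that without it from 0.674% to 0.637%.

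The largest members carried no tryptophan. At or above 1% of TRB reads there were 3 members, each in another treatment group, among 471 CDR3s of that size, of which 114 had a hydrophobic residue at 1 of the positions alone. The valine-leucine CDR3 held 4944 reads (4.69% of TRB reads) in Vehicle tumour 3 and 1 read in another Vehicle tumour. The leucine-tyrosine CDR3 held 3.89% of AC484 tumour 6 and the isoleucine-tyrosine CDR3 2.75% of aPD-1 tumour 5. The next were leucine-leucine in aPD-1 tumour 9 (0.819%, 1506 reads) and leucine-valine in AC484 tumour 1 (0.526%, 1028 reads). These clones set the member share of reads of their tumours.

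No difference between treatments in the share of members among distinct CDR3s passed once the tests were adjusted. Member shares were taken at an equal depth of 5060 TRB reads, the smallest total, from the number of distinct CDR3s that a draw of that size holds on average. In Vehicle they ran from 0 to 2.09% (median 0.963%), in aPD-1 from 0.750 to 1.80% (median 1.42%) and in AC484 from 0.828 to 2.04% (median 1.49%). The groups overlapped throughout, and the spread was widest in Vehicle. The means were 0.965% ± 0.641 (SD, n = 14), 1.36% ± 0.323 (n = 15) and 1.43% ± 0.357 (n = 15).

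AC484 exceeded Vehicle by 0.463 percentage points (SE 0.195, two-sided permutation test, p = 0.0217, adjusted over 9 tests p = 0.194), with 14 of 15 AC484 tumours above the Vehicle median. The difference between aPD-1 and Vehicle was 0.395 (SE 0.190, p = 0.0430, adjusted p = 0.194), and that between AC484 and aPD-1 0.0674 (SE 0.124, adjusted p = 0.810). Without Vehicle tumour 7, the highest of its group, both differences from Vehicle passed, at 0.549 (adjusted p = 0.0440) and 0.482 (adjusted p = 0.0478). Without the equal depth, AC484 exceeded Vehicle by 0.577 (adjusted p = 0.0243). Depth and richness moved with the groups: Vehicle tumours held 86 to 1034 TRB CDR3s of these lengths, aPD-1 tumours 516 to 2604 and AC484 tumours 1476 to 6133, and their part in the difference was not tested. Vehicle tumours 4 and 5 had no member, in 330 and 86 CDR3s, which allows shares of up to 0.909% and 3.49% at 3 counts (exact 95% limits of 1.11% and 4.20%). Of 4 index primer sets, 12 Vehicle tumours had a set of their own. In the set that held both groups, aPD-1 exceeded Vehicle by 0.189 (10 against 2 tumours, exact permutation p = 0.470), and in the set shared by AC484 and aPD-1 the difference was 0.319 (7 against 5, exact permutation p = 0.149). AC484 and Vehicle shared no set.

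**Figure D4:**
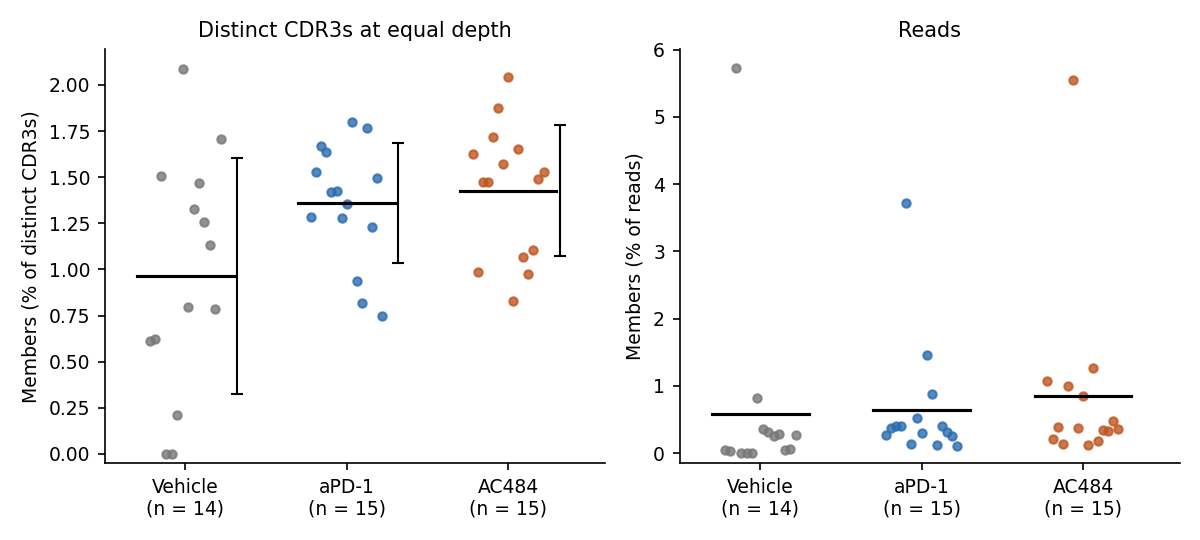
Member share per tumour, as per cent of distinct TRB CDR3s of 13 to 15 residues at 5060 TRB reads (left, group mean and SD) and as per cent of their reads (right, group mean alone), for 14 Vehicle, 15 aPD-1 and 15 AC484 tumours. Groups overlap in both panels, and in the right panel Vehicle tumour 3, aPD-1 tumour 5 and AC484 tumour 6 stand far above the rest.

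By reads, members held from 0 to 5.72% in Vehicle (median 0.160%), from 0.112 to 3.71% in aPD-1 (median 0.380%) and from 0.120 to 5.56% in AC484 (median 0.373%). One tumour in each group, holding 1 of the largest members named above, set the top of its range. The differences were 0.258 (SE 0.531) for AC484 against Vehicle, 0.199 (SE 0.422) for AC484 against aPD-1 and 0.0593 (SE 0.464) for aPD-1 against Vehicle, with adjusted p of 0.810 or higher. Without AC484 tumour 6 the first became −0.0784 and the second −0.138, and without aPD-1 tumour 5 the third became −0.160. Without Vehicle tumour 3 the first became 0.653 and the third 0.454 (permutation test, adjusted p = 0.0647 for each). With the largest member of each tumour left out, the differences were 0.164 (SE 0.0685), 0.0678 (SE 0.0548) and 0.0962 (SE 0.0545). Their adjusted p was 0.0992 or higher by the same test.

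Among large CDR3s the mean member share was 0.574% ± 1.29 (SD) in Vehicle, 0.690% ± 0.881 in aPD-1 and 1.10% ± 1.17 in AC484, and it was 0 in 11, 9 and 7 tumours. Adjusted p-values were 0.624 or higher. The Vehicle mean rested on tumour 3 (4.44%). Without it, AC484 exceeded Vehicle by 0.828 where the difference had been 0.530 (adjusted p = 0.0647), and aPD-1 by 0.413 where it had been 0.116 (adjusted p = 0.277). The contrast between large and small clones was −0.620 (SE 0.398) in Vehicle, −0.862 (SE 0.285) in aPD-1 and −0.550 (SE 0.312) in AC484, negative in 10, 11 and 10 tumours. The differences of the contrast between treatments had adjusted p-values of 0.892 in all 3 comparisons.

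Pair usage was compared between treatments by counting distinct CDR3s for each residue pair at positions 6 and 7 and fitting all pairs with at least 100 entries (111 of 400) with edgeR's quasi-likelihood test. The hydrophobic pairs common enough numbered 3, and all contain tryptophan. None was called between AC484 and Vehicle, where 4.50% of all pairs tested were called, between AC484 and aPD-1 (2.70%) or between aPD-1 and Vehicle (4.50%). At an unadjusted p under 0.05 the numbers were 1, 0 and 0, and DESeq2 called none either. Tyrosine-tryptophan made up 0.326% ± 0.117 (SD, n = 15) of CDR3s in AC484, 0.255% ± 0.109 (n = 15) in aPD-1 and 0.196% ± 0.263 (n = 14) in Vehicle, with a log2 difference of 0.80 between AC484 and Vehicle (edgeR p = 0.0308, adjusted p = 0.163). Tryptophan-valine differed by 0.86 in the same comparison (edgeR adjusted p = 0.275) and valine-tryptophan by 0.21 (edgeR adjusted p = 0.743). The median log2 difference was 0.80 over these 3 pairs and 0.27 over all pairs tested. Tryptophan was present in 61.6% of the 86 member entries of Vehicle, 58.6% of the 348 of aPD-1 and 62.2% of the 724 of AC484. Members with tryptophan made up 0.661% ± 0.533 of the CDR3s of a Vehicle tumour, 0.861% ± 0.266 in aPD-1 and 1.01% ± 0.194 in AC484, without an equal depth.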

How the data were processed

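Receptor transcripts of both chains were captured from tumour RNA (SMARTer Mouse TCR a/b kit), read on a MiSeq and turned into amino acid clonotypes by the authors with MiXCR, whose parameters are not given in the sources used here. The deposited values are counts of reads per amino acid CDR3 and tumour, both chains together and not normalized. They carry no V gene, chain label, nucleotide sequence or molecular identifier, and intervals cover counting error only. The submitters' notes name mm10. The deposited library concentration is in another unit, nM, and was not used. Where nothing states otherwise, tumours were taken as separate mice.

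The members, residue classes and tests were chosen with earlier results of these data known. Germline Trbd, Trbj and Trbv segments were read from GRCm38 (mm10) to check the 12 endings and the Trbv starts. Equal depth used the hypergeometric expectation at 5060 TRB reads. Group means were compared with two-sided permutation tests (100000 resamples, smallest p 1e-05, exact where a group held under 10 tumours), adjusted by Benjamini-Hochberg over 9 tests. Clone size and features used sign-flip tests over tumours, which assume symmetry about 0. Residue pairs were fitted over 44 tumours with edgeR 4.0.16 (R 4.3.3), with DESeq2 1.42.0 as an alternative. Tests were checked on simulated data. In counts simulated for AC484 against Vehicle over 111 pairs, edgeR called 10 of 40 pairs changed by 1.5-fold and 1 of 71 unchanged pairs. Named CDR3s were the 5 members in most tumours (ties by reads), the member with most reads per group and the 5 largest, with the most widespread member of each of the 4 commonest pairs added after their values were seen. Named pairs were the 10 commonest and named features all those called. Alternatives covered the residue set, lengths, chain rule, carry-over, near-copies, 1-read CDR3s, depth, boundaries, index set, replicate block, the methods' t-test and each tumour left out.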

Additional observations from a re-analysis of the deposited data

How the results depend on the processing

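The clone-size contrast of all members kept its direction under every alternative run, but did not pass with the boundary at 1% (−0.587). It was smaller, and passed, with the boundary at 0.01% (−0.296, sign-flip permutation p = 0.0225) and with cysteine and tyrosine out of the residue set (−0.351, p = 0.0321). For members without tryptophan alone the direction was not kept. Their contrast was −0.0240 (SE 0.149), and 0.0134 (SE 0.229) within Trbj2 genes. Without the equal depth, the share of distinct CDR3s in AC484 exceeded Vehicle by 0.577 and passed. With each tumour left out it differed by 0.388 to 0.549 (AC484 against Vehicle) and 0.321 to 0.482 (aPD-1 against Vehicle), and both passed only without Vehicle tumour 7. The share of reads ranged from −0.0784 to 0.653 for AC484 against Vehicle, −0.138 to 0.418 for AC484 against aPD-1 and −0.160 to 0.454 for aPD-1 against Vehicle. Among large CDR3s the ranges were 0.366 to 0.828, 0.250 to 0.503 and 0.0277 to 0.413.

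Several differences that had not passed changed sign, and none passed. With tyrosine left out of the residue set, the share of distinct CDR3s gave −0.0719 for AC484 against aPD-1, and the share of reads −0.139 for AC484 and −0.164 for aPD-1 against Vehicle. With cysteine and tyrosine both left out these were −0.0553, −0.138 and −0.171. At 15 residues alone, AC484 against aPD-1 gave −0.355 for distinct CDR3s. Among large CDR3s, a boundary of 1% gave −0.823 for AC484 and −0.916 for aPD-1 against Vehicle, and one of 0.01% gave −0.117 for AC484 against aPD-1. The contrast by treatment with a boundary of 0.01% was −0.200 (AC484 against Vehicle), −0.333 (AC484 against aPD-1) and 0.133 (aPD-1 against Vehicle). CAW starts moved to 0.0526 with CDR3s of 1 tumour and to 0.00458 without carry-over.

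Numbers of residue pairs called of all tested were 5, 3 and 5 (AC484 against Vehicle, AC484 against aPD-1, aPD-1 against Vehicle). For the first they were 0 by DESeq2 and 0 without TMM scaling (16 at an unadjusted p under 0.05 in each), 16 with a minimum of 10 entries and 0 with the index set as a term (14 unadjusted). For the second they were 5 without scaling, 1 without CDR3s of 1 read and 0 with the index set (10 unadjusted). For the third they were 0 by DESeq2 (3 unadjusted), 0 without scaling (7), 2 without CDR3s of 1 read and 0 with the index set (12). No hydrophobic pair was called in any. Tumours of the same number share only a number: their deviations had median correlations of 0.04, 0.02 and −0.01. With the replicate block, 8, 3 and 1 pairs were called. AC484 then exceeded Vehicle by 0.456 in distinct CDR3s (sign-flip adjusted p = 0.260), and no difference between treatments in a member share passed, as before. The causes were not tested.

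Depth limits the counts: 26.2% of member entries had 1 read, against 23.9% of others, and 0.173% of members and 0.655% of others were near-copies of a CDR3 with at least 100 times the reads.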
